A study of Mus musculus with 22 samples.

Results

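Cytosolic ribosomal protein genes were the 87 genes of the 21898 in the deposited mouse heart table whose names begin with Rpl or Rps and a digit, or are Rplp0, Rplp1, Rplp2 or Rpsa, with Rps6k kinases and names containing -ps left out. They comprised 46 large-subunit genes, 31 small-subunit genes, 8 paralog genes that duplicate or resemble a subunit gene, Rps19bp1 (which encodes a binding partner of Rps19 and no ribosomal protein) and Rps23rg1 (a gene derived from Rps23 by retroposition). Some ribosomal proteins, such as those encoded by Fau and Rack1, fall outside the name pattern. Hearts came from male mice, 6 weeks old at the start, whose strain is not given in the sources used here: 4 case mice under chronic psychological stress, 4 treatment mice given the same stress plus JWH133, an agonist of the cannabinoid receptor CB2R, at 10 mg/kg by repeated intraperitoneal injection each day for 3 weeks, and 3 unstressed control mice. No injection of vehicle is described for case or control mice, so the drug and the injections cannot be told apart.

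Each ribosome is built from rRNA and a set of proteins that occur mostly in a single copy, so cells keep the mRNAs of these proteins at balanced levels. Most of the mRNAs begin with a C and a run of C and U bases, the 5′ TOP motif, through which the kinase mTOR and the protein LARP1 set their translation. Free Rpl5 and Rpl11, which travel with 5S rRNA, bind Mdm2, and heart and skeletal muscle additionally use Rpl3l, a muscle paralog of Rpl3.

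The 11 libraries held 29410822 to 34412849 counts each, and no 2 libraries of a group agreed within sampling noise. Cardiomyocyte markers were abundant in every library, with a summed level of 45290 to 55600 counts per 1000000 (CPM) in case, 51940 to 58710 CPM in treatment and 55420 to 57770 CPM in control libraries for 7 of 7 genes, including Myh6 and Tnnt2. Case library d stood apart from the other case libraries on the first principal component of all genes, at -9.8 against 60.7, 64.6 and 29.7. Treatment libraries a to d lay at -9.9, -22.7, -15.1 and -19.9 and control libraries a to c at -26.5, -27.7 and -23.3. Case library d thus lay nearer to the treatment and control libraries than to the other case libraries. Members named here whose call changed without case library d are given both ways. The hearts were whole tissue, in which more cells of a type and more RNA per cell cannot be told apart.

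The 87 genes took 0.985%, 0.804%, 1.03% and 0.913% of all counts in case libraries a to d and 1.06%, 0.893%, 0.870% and 0.789% in treatment libraries a to d, against 0.848%, 0.788% and 0.835% in control libraries a to c. Case libraries a, c and d and treatment libraries a to c therefore lay above all control libraries, while case library b and treatment library d lay within the control range. A low-count filter kept 83 of the 87 genes. The 4 that did not pass were the paralogs Rpl10l, with 0 counts in all 11 libraries, Rpl39l, with at most 3, and Rpl36al, with at most 10, and Rps23rg1. Rps23rg1 had 0, 1, 0 and 1 counts in case libraries and 4, 5, 7 and 3 in treatment libraries, against 22, 4 and 15 in control libraries. Rps23rg1 was not tested in the main fit because it did not pass the filter, and counts this low have a wide counting error.

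Levels were compared between genes as FPKM, the counts per 1000 bases of a representative transcript and per 1000000 counts of the library. The 77 large- and small-subunit genes had a median of 109 FPKM in control hearts, with the middle 50% between 56.0 and 156 FPKM. Rps2, a protein of the mRNA entry side of the small subunit, was highest at 724 FPKM, followed by Rpl41, the smallest ribosomal protein (444), Rpsa, also known as the laminin receptor (365), and Rplp0, the base of the ribosomal stalk (358). With the longer deposited gene lengths, which sum all annotated exons, the leading genes were Rps2 (395 FPKM), Rplp0 (293), the stalk protein gene Rplp1 (249), Rpsa (184) and Rpl41 (166).

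Rpl10l and Rpl39l had few or no counts. Among the other subunit and paralog genes, the lowest levels belonged to those whose transcript lies mostly inside exons of another annotated gene. Rps23rg1, which is in neither class, had 0.389 FPKM in control hearts with 0% of its transcript inside same-strand exons of another gene. Rps10, an essential protein of the small-subunit head, had only 1.79 FPKM in control hearts, and 29, 14, 51 and 57 counts in case libraries and 45, 48, 88 and 47 in treatment libraries, against 11, 32 and 40 in control libraries. Of its transcript bases, 91.6% are also exon bases of RPS10-NUDT3, a readthrough gene on the same strand of chromosome 17 (27580780 to 27635222, GRCm38). Rpl24, which contacts the small subunit, had 0.508 FPKM with 71.5% of its transcript inside exons of Gm28037 (chromosome 16, 55966343 to 55980721). Rpl13a had 1.61 FPKM with 59.3% inside exons of Gm45713 (chromosome 7, 45125922 to 45136231), and the paralog Rpl36al had 0.429 FPKM with 63.1% inside exons of Gm49383 (chromosome 12, 69182834 to 69197104). RPS10-NUDT3 and Gm28037 were not analysed here, since the table used has no row for them, and Gm45713 and Gm49383 summed to 0 and 4 counts over the 11 libraries. Among the other 79 subunit and paralog genes that passed the filter, the share of the transcript inside such exons was at most 10.7%, and the lowest level was 6.85 FPKM (Rpl39). Overlap with exons of the opposite strand above 20% occurred in 5 genes, which had 7.31 to 114 FPKM. This comparison was made after the levels were seen and has no test, and the part of the counting rule in these levels was not tested. The values of these 4 genes are uncertain as measures of their mRNA.

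**Figure D1:**
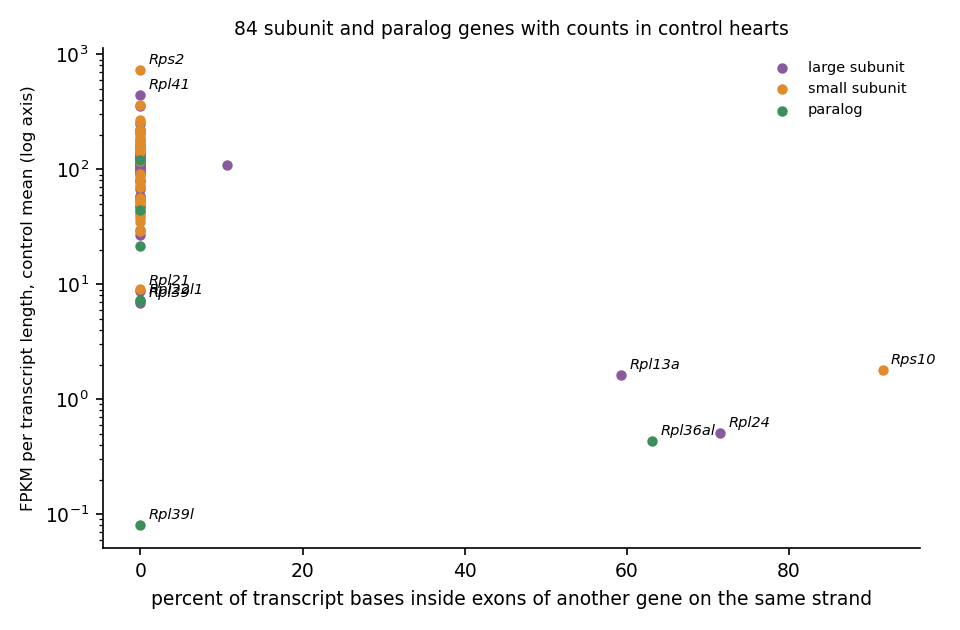
Level of subunit and paralog genes in control hearts (vertical log axis, mean FPKM over 3 libraries by transcript length) against the percent of transcript bases that lie inside exons of another gene on the same strand (horizontal axis), with 1 point per gene and Rpl10l, at 0 FPKM, not drawn. Rps10, Rpl24, Rpl36al and Rpl13a sit at 59.3% to 91.6% overlap and at or below 1.79 FPKM, and all other points lie at 10.7% overlap or less, where Rpl39l, which did not pass the filter, is the only point drawn below 6.85 FPKM.

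Sequence shared with other annotated genes is a further limit. The sharing genes include copies elsewhere in the genome and, for Rps10, Rpl24 and Rpl13a, the overlapping genes named above. Only 5 of the 77 subunit genes, among them Rpl22, Rpl32, Rps21 and Rps3, shared no 100-base stretch of transcript with another annotated gene. Across the 77 genes the percent of shared stretches had a Spearman correlation of -0.07 with the control level, a description over genes measured in the same libraries. Rpl21, at 8.74 FPKM, shared 36.7% of its stretches with 40 genes, and Rpl10 and Rps27 shared over 90%.

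Transcription start windows of the members are shown because a pyrimidine run is common in this gene family. RefSeq promoter sequences (GRCm38.p6) were listed for 67 of the 87 genes. The window of 30 bases, from 10 bases before the annotated start to 20 bases from it, was searched on the coding strand for a C followed by at least 4 bases that are each C or T. Capitals mark the longest such run, and windows without capitals hold none.
Rps6 (chr4:86857348-86857377, - strand): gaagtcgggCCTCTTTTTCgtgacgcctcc
Rps27 (chr3:90213629-90213658, - strand): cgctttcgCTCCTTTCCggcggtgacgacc
Rplp2 (chr7:141447641-141447670, + strand): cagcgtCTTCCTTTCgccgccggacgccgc
Rpl28 (chr7:4792955-4792984, + strand): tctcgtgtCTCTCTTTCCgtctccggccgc
Rpl5 (chr5:107900518-107900547, + strand): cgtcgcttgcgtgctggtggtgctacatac
Rpl7l1 (chr17:46782637-46782666, - strand): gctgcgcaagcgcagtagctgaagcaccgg
Such a run was found in 37 of the 57 subunit genes listed (64.9%), against 42.3% of 11021 other genes tested and 39.6% of all 27025 genes in the promoter table. Runs of 8 bases or more were found in 40.4% of the subunit genes, against 11.3% of the other genes tested and 7.35% of the Mrpl and Mrps genes. The annotated start decides where the window lies, so a window without a run says only that these letters are absent there.

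The first comparison asked how ribosomal protein mRNAs differed between stressed and unstressed hearts. In case hearts, 79 of the 83 genes tested had a log2 fold change above 0, with a median of 0.20, whereas 51.1% of all 14050 genes tested were above 0, with a median of 0.01. The shift was small, and few single genes passed the test: 4 rose (8.21% of all genes tested rose) and 1 fell (7.55% fell) at an adjusted p under 0.05 in edgeR's quasi-likelihood test. Genes higher at an unadjusted p under 0.05 numbered 20 (16.9% of all genes), and 1 was lower (14.9% of all genes). Case and control libraries did not overlap for 28 of the 83 genes in the higher direction, where 11.7% of all genes showed this, and for 1 in the lower direction (13.4% of all genes). The median was 0.18 over 46 large-subunit genes, of which 3 rose, and 0.24 over 31 small-subunit genes, of which 1 rose. Other genes of like deposited length (636 to 4076 bases) had a median of 0.01 over 5994 genes. The 77 genes of the mitochondrial ribosome (Mrpl and Mrps names) had a median of -0.09, with 0 that rose and 4 that fell, and at an unadjusted p under 0.05 with 0 higher and 11 lower. The difference between the 2 sets of genes was not tested.

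**Figure D2:**
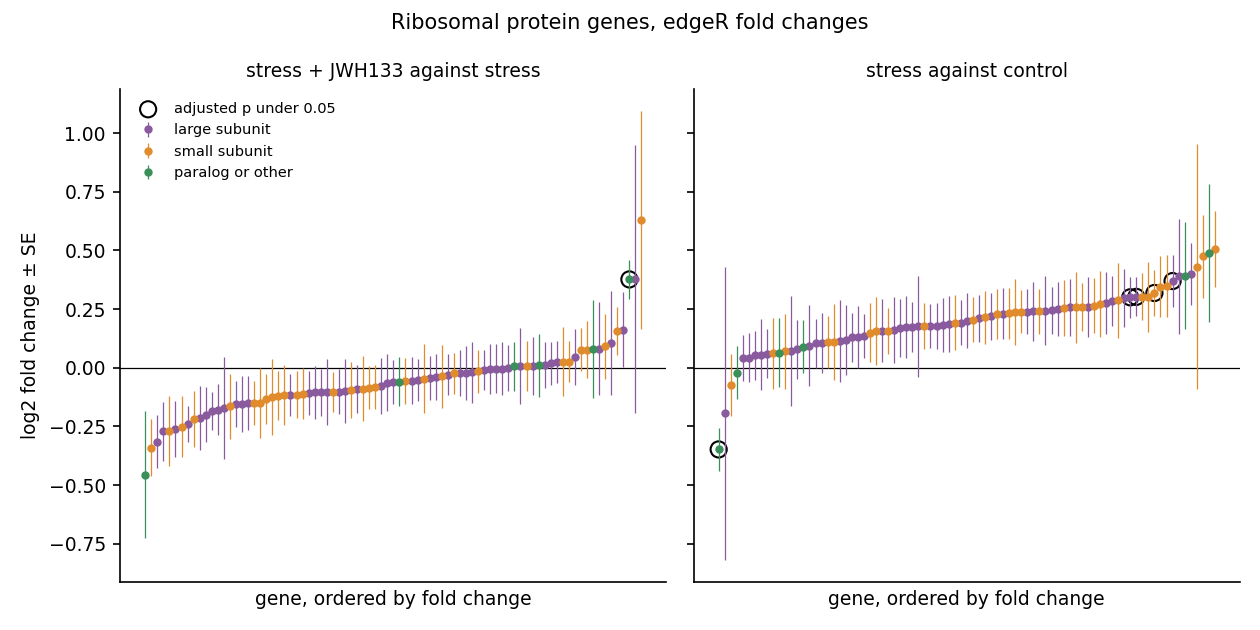
Log2 fold change (vertical axis, edgeR, bars ± SE) of each of the 83 genes tested, ordered from lowest to highest, for treatment against case (left) and case against control (right). On the right 79 of 83 points lie above 0 and 5 are circled as past the threshold, and on the left 61 lie below 0 and 1 is circled.

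Of the 4 genes that rose, Rpl5 and Rpl30 are described here. Rpl5, the 5S rRNA partner of Rpl11 (chromosome 5, 107900502 to 107909005), whose start window above has no pyrimidine run, had 305, 253, 288 and 258 CPM in case libraries, against 220, 235 and 218 CPM in control libraries. The lowest case library exceeded the highest control library, with a log2 fold change of 0.30 ± 0.09 (fold changes are given ± SE throughout, adjusted p = 0.0370). Rpl30, a large-subunit protein also linked to selenoprotein synthesis (chromosome 15, 34440505 to 34443640), had 83.5, 75.4, 85.8 and 76.7 CPM in case libraries, against 65.6, 63.9 and 65.9 CPM in control libraries. The control values were tightly grouped, all case values lay above them, and the log2 fold change was 0.30 ± 0.08 (adjusted p = 0.0315).

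Rpl7l1, a paralog of Rpl7 and homolog of a yeast protein of large-subunit assembly (chromosome 17, 46773907 to 46782672), was the gene that fell. It had 20.7, 20.5, 23.0 and 25.2 CPM in case libraries, against 29.1, 27.7 and 28.7 CPM in control libraries, with no overlap. Its log2 fold change was -0.35 ± 0.09 (adjusted p = 0.0246), while its canonical relative Rpl7 averaged 176 ± 23.0 CPM in case and 156 ± 2.66 CPM in control libraries (SD, n = 4 and 3). The call of Rpl7l1 was lost when any of the control libraries or case libraries a or b was left out, at adjusted p up to 0.0967. It was kept in the 6 other omissions.

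**Figure D3:**
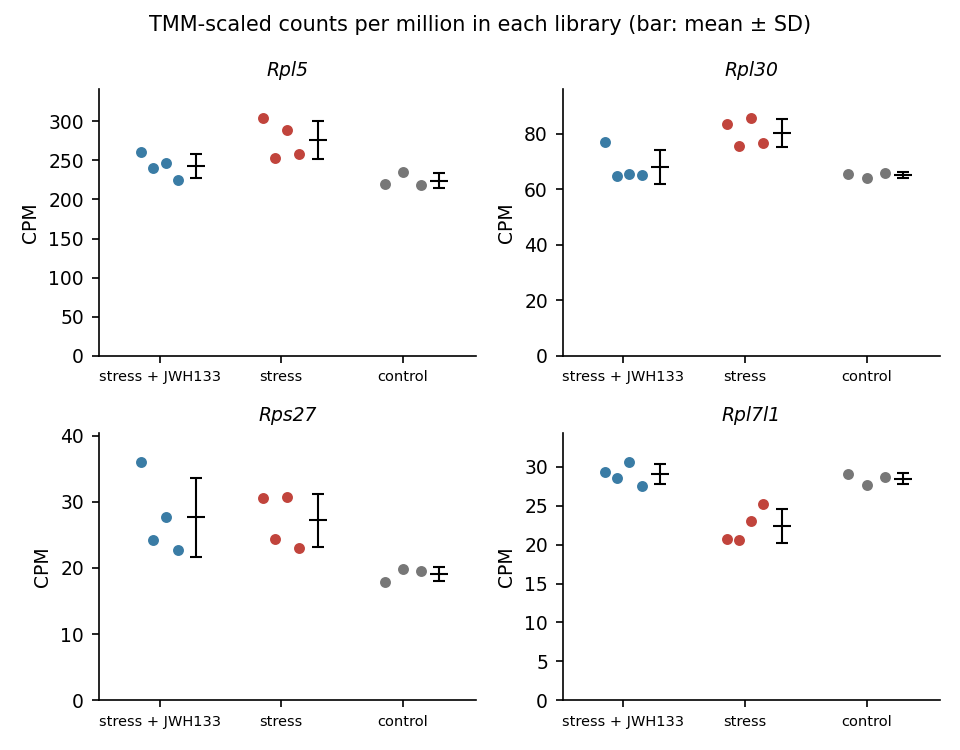
CPM of Rpl5, Rpl30 and Rpl7l1, which passed the threshold in case against control, and of Rps27 in each treatment, case and control library (points), with the group mean ± SD (bars). For Rpl5, Rpl30 and Rps27 all case points lie above all control points, and for Rpl7l1 all case points lie below all treatment and control points.

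These calls depended on which libraries entered the fit. Without case library d, 13 genes rose (15.7% of the 83), where 16.5% of all genes tested rose. Without case library a, control library a, control library b or control library c, 0 rose, where 4.30%, 2.16%, 2.32% and 2.29% of all genes rose. Fits of case and control libraries alone also called 0 (2.86% of all genes rose and 3.35% fell). DESeq2 called 7 that rose (8.43%, against 11.5% of all genes) and 1 that fell (1.20%, against 9.60%). The share of members that rose was thus below that of all genes in each of these fits. The median stayed between 0.15 and 0.25 when any 1 library was left out.

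Case libraries were not alike. The median difference of the 83 genes from the control mean was 0.34, 0.09, 0.28 and 0.05 on the log2 scale in case libraries a to d, against 0.02, -0.04 and 0.03 in control libraries a to c. Case libraries a and c had the larger medians, and all 4 case medians lay above the control medians. Within case libraries the highest value of a gene was in library a for 59 of 83 genes and in library c for 18. In case library d, which stood apart over all genes, the median was the lowest of its group. The same values were 0.35, 0.06, 0.11 and -0.05 in treatment libraries a to d, where library a was the highest of its group for 73 of 83 genes. The coefficient of variation of CPM within a group had a median of 10.9% in case and 12.7% in treatment, against 5.18% in control libraries, over 78 genes with at least 100 counts in every library.

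**Figure D4:**
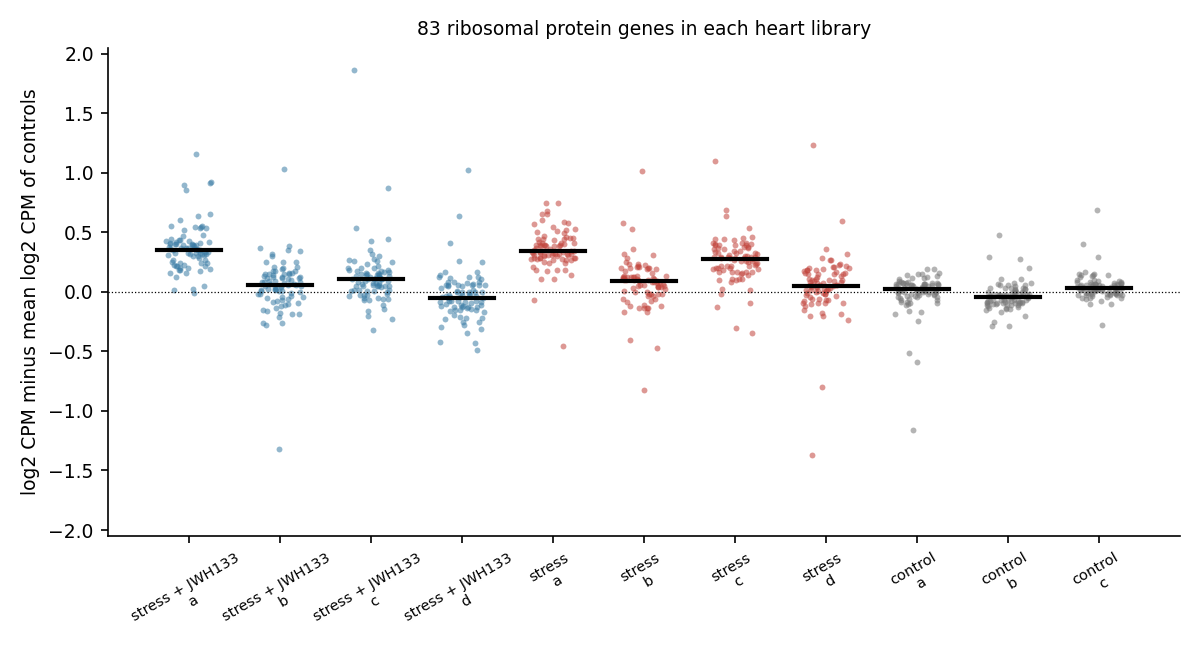
Log2 CPM of each of the 83 genes minus its mean over control libraries (vertical axis) in the 4 treatment, 4 case and 3 control libraries, with 1 point per gene and a black bar at the median. Treatment library a and case libraries a and c have medians of 0.35, 0.34 and 0.28, and the other libraries have medians between -0.05 and 0.11.

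Markers of blood and immune cells differed between the groups as well. Erythroid markers rose for 7 of 8 genes in case against control, with a summed level of 521 to 830 CPM in case and 613 to 1337 CPM in treatment libraries, against 177 to 212 CPM in control libraries. None of the 8 was at 0 in every library. Macrophage markers rose for 2 of 7 genes in case against control, at 404 to 692 CPM in case and 365 to 464 CPM in treatment libraries, against 365 to 394 CPM in control libraries. Neutrophil markers rose for 2 of 5 genes tested, at 7.75 to 15.4 CPM in case and 6.34 to 20.2 CPM in treatment libraries, against 3.47 to 4.77 CPM in control libraries, and fibroblast markers rose for 2 of 6, at 1109 to 3364 CPM in case and 1047 to 2173 CPM in treatment libraries, against 1265 to 1469 CPM in control libraries. By library, the erythroid sum was 758, 521, 830 and 687 CPM in case libraries a to d, in the same order as their share of counts from ribosomal protein genes, and 1058, 613, 1336 and 1337 CPM in treatment libraries a to d, in another order than that share. Platelet markers rose for 3 of 4 genes tested in treatment against case and against control, at 19.1 to 88.5 CPM in treatment and 7.65 to 16.9 CPM in case libraries, against 10.3 to 12.95 CPM in control libraries. Of 7 cardiomyocyte markers 1 fell in case against control, Myl2 (-0.30 ± 0.09 on the log2 scale). Of 4 B cell markers only 1 was tested, Cd79b, which fell (-2.39 ± 0.52) from few reads. It had 0.031, 0.0941, 0.262 and 0.256 CPM in case libraries, against 0.979, 0.711 and 0.876 CPM in control libraries. The part of these cell types in the results was not tested.

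Other members with well-known roles had positive log2 fold changes in case against control without passing the test. Rps6, the small-subunit target of S6 kinase, averaged 231 ± 27.1 CPM in case and 182 ± 14.5 CPM in control libraries (log2 fold change 0.35 ± 0.13, adjusted p = 0.0931), and it passed without case library d (0.40, adjusted p = 0.0304). Rpl10, which joins the large subunit last and shapes the peptidyl transferase centre, averaged 214 ± 27.3 and 176 ± 3.91 CPM in case and control libraries (0.28 ± 0.11, adjusted p = 0.0898), and it passed without case library b (0.37, adjusted p = 0.0254). Of the Mdm2-binding proteins, Rpl11 had a log2 fold change of 0.16 ± 0.14, Rpl23 of 0.26 ± 0.12 and Rpl26 of 0.23 ± 0.11, with adjusted p of 0.458, 0.170 and 0.168, beside the called Rpl5. Of the stalk proteins, the log2 fold change was 0.18 ± 0.09 for Rplp0, 0.30 ± 0.12 for Rplp1 and 0.06 ± 0.15 for Rplp2. Rps3, a protein at the mRNA entry site, had 0.22 ± 0.11, Rpsa 0.15 ± 0.13, and Rps27a, made as a fusion with ubiquitin, 0.07 ± 0.16. The changes of Rplp2 and Rps27a were smaller than their SE, and their direction turned when case library a was left out (-0.02 and -0.05).

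By sequence features, the median log2 fold change in case against control was 0.18 in the 37 subunit genes with a pyrimidine run in the start window. It was 0.24 in the 20 without and 0.23 in the 20 with no listed promoter. The run could lie anywhere in the window, so it need not be a TOP motif. Spearman correlations of the fold change over the 77 subunit genes were 0.15 with CPM, 0.19 with transcript length and 0.04 with the percent of shared stretches, as descriptions over genes of the same libraries.

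In the second comparison, which asked what JWH133 changed under stress, 1 gene rose in treatment against case hearts (4.33% of all genes tested rose) and 0 fell (6.57% fell) in edgeR's test. At an unadjusted p under 0.05, 1 gene was higher and 5 were lower (14.1% and 16.4% of all genes). DESeq2 called 1 in each direction (1.2% of the 83 genes), where 7.73% of all genes rose and 10.5% fell. The log2 fold change was above 0 for 22 of 83 genes and below 0 for 61, with a median of -0.06, where 50.8% of all genes were above 0 and the median was 0.01. Treatment and case libraries did not overlap for 1 gene in the higher direction (7.28% of all genes) and 0 in the lower (6.87% of all genes). The comparison shares the case libraries with the first, so opposite signs in both are not independent.

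The gene that rose was again Rpl7l1, with 29.4, 28.6, 30.6 and 27.6 CPM in treatment libraries, against 20.7, 20.5, 23.0 and 25.2 CPM in case libraries. All treatment values lay above all case values, and the log2 fold change was 0.38 ± 0.08 (adjusted p = 0.0220). Its call was lost when any of case libraries a or b or treatment libraries a, b or c was left out, at adjusted p up to 0.0661, and kept in the 6 other omissions. The 4 genes that rose under stress did not pass the test here. Rpl30 had 77.1, 64.7, 65.3 and 64.9 CPM in treatment libraries, against 83.5, 75.4, 85.8 and 76.7 CPM in case libraries. Only treatment library a reached the case range, with a log2 fold change of -0.24 ± 0.08 (adjusted p = 0.0617), and it passed without that library (-0.31, adjusted p = 0.0463), without case library d (-0.26, adjusted p = 0.0268) and with DESeq2 (adjusted p = 0.0344). Rpl5 had 260, 240, 247 and 225 CPM in treatment libraries, against 305, 253, 288 and 258 CPM in case libraries, with overlap (-0.18 ± 0.08, adjusted p = 0.141). Rpl23 had the lowest fold change of the large-subunit genes, -0.32 ± 0.11, at adjusted p = 0.0857, and passed without case library d (-0.35, adjusted p = 0.0437).

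Between treatment and control hearts, 0 of the 83 genes rose (0.292% of all genes tested rose) and 0 fell (0.790% fell) in edgeR's test. DESeq2 also called 0, where 1.0% of all genes rose and 1.96% fell. At an unadjusted p under 0.05, 10 were higher and 0 lower (5.19% and 6.07% of all genes). The log2 fold change was above 0 for 73 of 83 genes, with a median of 0.13, and for 51.7% of all genes, with a median of 0.01. Without treatment library a, the median was 0.03. Groups did not overlap for 9 genes in the higher direction (8.96% of all genes) and 0 in the lower (10.5% of all genes). Rpl5 had a log2 fold change of 0.12 ± 0.09 and Rpl7l1 of 0.03 ± 0.09, with adjusted p of 0.690 and 0.953. Rps10 had the highest fold change of the members, 1.06 ± 0.52 (adjusted p = 0.485), from the few counts given above.

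Paralogs were set against the canonical gene within each library, as a log2 ratio of FPKM by deposited length. Among the 6 planned pairs, 4 had at least 10 counts of both genes in every library, and exact permutation tests (two-sided) were made for 12 comparisons, of which none passed after Benjamini-Hochberg adjustment. The lowest p possible is 0.0571 for 4 against 3 libraries and 0.0286 for 4 against 4. With these limits no outcome of the 12 tests could have come under 0.05 after adjustment. That none passed therefore says nothing about whether the ratios differed.

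Rpl3l and Rpl3, which take the same place in the ribosome, have coding sequences that are 73.9% identical. The first 90 bases of both are shown because the reads of the pair can be told apart by such differences, with capitals in Rpl3l at the bases that differ from Rpl3.
Rpl3 coding start (chromosome 15): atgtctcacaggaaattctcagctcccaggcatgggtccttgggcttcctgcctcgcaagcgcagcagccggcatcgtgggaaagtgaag
Rpl3l coding start (chromosome 17): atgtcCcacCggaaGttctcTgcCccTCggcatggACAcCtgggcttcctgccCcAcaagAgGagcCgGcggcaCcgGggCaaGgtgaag
Rpl3l had the higher measured level of the pair in all 11 libraries, at 2.65, 2.91, 4.10 and 2.02 times the FPKM of Rpl3 in case libraries and 3.07, 3.15, 3.10 and 3.80 times in treatment libraries, against 3.82, 3.17 and 3.55 times in control libraries. By transcript length the ratios were lower, at 1.35, 1.48, 2.09 and 1.03 in case libraries and 1.56, 1.60, 1.58 and 1.93 in treatment libraries, against 1.94, 1.61 and 1.81 in control libraries. The choice of length moves all libraries by the same factor and leaves the differences between groups as they are. Rpl3 shared 79.4% of its 100-base stretches with 7 other genes, whereas Rpl3l shared 0%. How reads in such stretches were counted is not given. The level of Rpl3, and with it which gene of the pair was the more abundant, is therefore uncertain. The lowest ratio was in case library d and the highest in case library c, so the case libraries spanned the control range. Rpl3 had 134, 114, 98.5 and 139 CPM in case libraries, against 88.0, 95.7 and 92.3 CPM in control libraries (log2 fold change 0.40 ± 0.13, adjusted p = 0.0588, or 0.0265 without case library c and 0.0290 with DESeq2), and Rpl3l averaged 178 ± 26.7 CPM in case and 167 ± 9.05 CPM in control libraries (0.09 ± 0.11, adjusted p = 0.622). The log2 ratio differed by -0.31 between case and control (exact permutation p = 0.286, adjusted 0.480).

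Rps27, a zinc finger protein of the small subunit, has a close relative in Rps27l, a target of p53, and a copy in Rps27rt. The coding sequences of Rps27 (chromosome 3) and Rps27rt (chromosome 9) are identical over 255 of 255 bases, so their reads cannot be separated within the coding part and both values are uncertain. Rps27l differs from Rps27 at 61 of 255 bases, in capitals below, and shared no 100-base stretch with another gene.
Rps27 and Rps27rt: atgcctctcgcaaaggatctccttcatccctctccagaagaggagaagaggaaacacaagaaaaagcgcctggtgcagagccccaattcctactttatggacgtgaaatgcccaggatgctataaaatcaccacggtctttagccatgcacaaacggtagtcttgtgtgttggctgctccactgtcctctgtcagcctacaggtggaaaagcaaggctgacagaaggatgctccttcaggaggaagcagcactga
Rps27l (chromosome 9): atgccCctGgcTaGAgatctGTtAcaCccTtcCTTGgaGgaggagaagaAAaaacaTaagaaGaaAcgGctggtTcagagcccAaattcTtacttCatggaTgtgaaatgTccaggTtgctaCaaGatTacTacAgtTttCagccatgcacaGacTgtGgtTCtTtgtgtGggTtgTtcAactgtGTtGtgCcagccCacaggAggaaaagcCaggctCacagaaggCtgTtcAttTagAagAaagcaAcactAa
Rps27 had 30.6, 24.5, 30.7 and 23.0 CPM in case libraries and 36.1, 24.2, 27.7 and 22.7 CPM in treatment libraries, against 17.9, 19.9 and 19.6 CPM in control libraries. All stressed hearts, with or without the drug, lay above all control hearts, with log2 fold changes of 0.51 ± 0.16 in case (adjusted p = 0.0528) and 0.53 ± 0.16 in treatment (adjusted p = 0.191) against control. In case against control it passed without case library d (adjusted p = 0.0166), without treatment library a (0.0271) and with DESeq2 (0.0224). Rps27rt, with 76 to 152 counts, averaged 3.54 ± 0.609 CPM in case and 3.74 ± 0.994 CPM in treatment, against 2.69 ± 0.274 CPM in control libraries (SD, n = 4, 4 and 3). Rps27l averaged 21.9 ± 2.49 CPM in case and 22.0 ± 1.35 CPM in treatment, against 22.2 ± 2.44 CPM in control libraries. The log2 ratio of Rps27l to Rps27 was 0.06, 0.25, -0.24 and 0.11 in case libraries and -0.37, 0.08, 0.08 and 0.38 in treatment libraries, against 0.47, 0.61 and 0.61 in control libraries. By transcript length all of them were below 0, at -0.83, -0.63, -1.13 and -0.77 in case libraries and -1.25, -0.80, -0.81 and -0.51 in treatment libraries, against -0.42, -0.27 and -0.28 in control libraries, so which gene of the pair was higher depends on the length used. Each group of stressed hearts was below all controls by -0.52 on average, at the lowest p the exact permutation test allows (0.0571, adjusted 0.171).

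The ratio of Rpl7l1 to Rpl7 was 0.0794, 0.103, 0.0929 and 0.121 in case libraries and 0.116, 0.125, 0.137 and 0.122 in treatment libraries, against 0.143, 0.135 and 0.145 in control libraries. Case libraries lay below all control libraries, by -0.52 on the log2 scale (exact permutation p = 0.0571, adjusted 0.171), and treatment libraries were higher than case libraries by 0.35 with overlap (p = 0.0571, adjusted 0.171). Rpl22l1, a paralog of Rpl22 with 87 to 253 counts, had 6.57, 7.93, 4.88 and 3.33 CPM in case libraries and 4.42, 3.22, 4.87 and 4.05 CPM in treatment libraries, against 2.75, 4.23 and 5.16 CPM in control libraries. The groups overlapped, and its log2 fold change in case against control was 0.49 ± 0.29 (adjusted p = 0.275). Rps19bp1 averaged 5.93 ± 0.836 CPM in case and 5.97 ± 0.498 CPM in treatment, against 5.67 ± 0.564 CPM in control libraries.

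**Figure D5:**
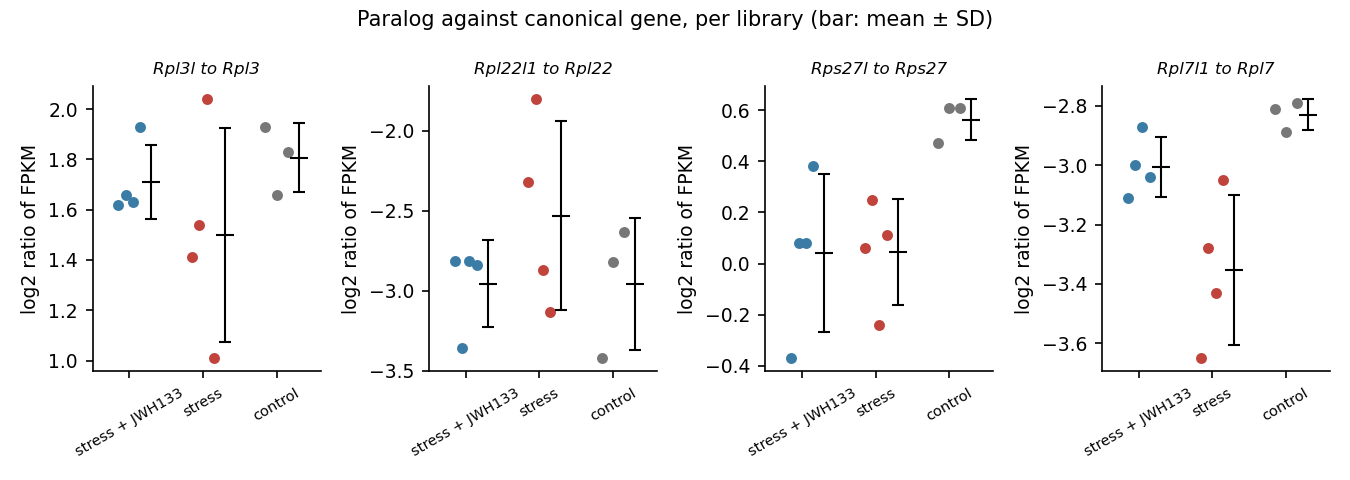
Log2 ratio of FPKM of each paralog to its canonical gene (vertical axes) in the treatment, case and control libraries (points), with the mean ± SD (bars). For Rps27l to Rps27 all 8 stressed libraries lie below the 3 control libraries, and for Rpl7l1 to Rpl7 all case libraries do.

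Other genes of the translation apparatus were described by lists, beside 8.21% of all genes tested that rose and 7.55% that fell in case against control, and 4.33% and 6.57% in treatment against case. Of 16 translation factors whose mRNAs carry a TOP motif, 1 rose in case against control, Eef1a1, the aminoacyl-tRNA carrier (0.35 ± 0.10 on the log2 scale), 0 fell, and the median was 0.15. Of 80 ribosome biogenesis genes, 7 rose, close to the share of all genes, and 0 fell in case against control. Those that rose included the helicases Ddx27 (0.59 ± 0.13) and Ddx52 (0.41 ± 0.11), the rRNA methyltransferase Dimt1 (0.49 ± 0.13) and Sbds, which frees new large subunits for use (0.78 ± 0.21). In treatment against case, 1 of these 80 rose, below the share of all genes. Another 6 fell, close to the share of all genes, among them Ddx27 (-0.65 ± 0.12) and Sbds (-0.85 ± 0.19). Of 15 genes of RNA polymerase I and its factors, 2 rose in case against control, Taf1a (0.51 ± 0.11) and Taf1b (0.72 ± 0.19), and 1 fell, the polymerase subunit gene Polr1e (-0.89 ± 0.11), which rose in treatment against case (0.72 ± 0.10). Of 30 initiation genes 1 rose, Eif1 (0.54 ± 0.12), and of 13 elongation and release genes 2 fell, Gspt1 (-0.35 ± 0.09) and Eef1akmt1 (-0.40 ± 0.11), in case against control. Of 10 genes of the Myc network, 4 rose in case against control, including Myc, a known activator of ribosome genes (1.51 ± 0.33), and its antagonists Mxi1 (0.56 ± 0.12) and Mxd1 (0.76 ± 0.17) and Mxd3 fell, from few reads, with 0, 0, 0 and 0.0961 CPM in case libraries, against 0.474, 0.982 and 0.501 CPM in control libraries. In treatment against case 5 of the 10 fell, with Myc at -1.99 ± 0.31. Of 30 genes of the mTOR pathway, 2 rose and 1 fell in case against control, and the mTOR restrainers Ddit4 (-2.59 ± 0.60), Sesn1 (-1.38 ± 0.33) and Sesn2 (-0.57 ± 0.16), with Deptor (-0.37 ± 0.08), fell in treatment against case. Ddit4 had 344, 229, 103 and 19.5 CPM in case libraries, against 26.3, 35.4, 25.1 and 28.9 CPM in treatment libraries. Sesn1 had 551, 652, 328 and 145 CPM in case libraries, against 155, 167, 175 and 149 CPM in treatment libraries. For both genes case library d lay below all treatment libraries. For Sesn2 and Deptor all case libraries lay above all treatment libraries. Of 10 genes of the p53 pathway, 1 rose and 1 fell in case against control, and 1 rose and 2 fell in treatment against case. The cell cycle inhibitor gene Cdkn1a had 335, 275, 95.5 and 26.4 CPM in case libraries and 20.1 to 36.0 CPM in treatment libraries, against 16.4, 18.3 and 16.1 CPM in control libraries (3.43 ± 0.69 in case against control and -2.71 ± 0.59 in treatment against case). Ccng1, another p53 target, moved the other way (-0.30 ± 0.08 and 0.29 ± 0.08). Many of these calls depended on single libraries. Of the 11 fits that each left out 1 library, the call in case against control was kept in 4 for Eef1a1 and in 6 for Ddx52, Dimt1, Sbds, Taf1b, Eef1akmt1 and Ccng1, and the call in treatment against case was kept in 2 for Sesn2 and Ccng1, in 5 for Ddit4 and Sesn1, and in 6 for Sbds and Cdkn1a. Leaving out any library other than case library d ended the call of at least 1 of these genes.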

How the data were processed

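Total RNA of whole mouse hearts was sequenced as paired-end libraries. The authors deposited raw read counts per gene for 11 libraries, with 1 length per gene and no normalization. Per the submitters' processing notes, cutadapt, HISAT2, TopHat2 and mm10 were used. The sources used here do not give versions, the counting program, or how it handled strand and reads in overlapping or repeated sequence. A further 11 per-library columns were not used. Column names give a group number and no condition. Which number stands for case and which for treatment was read from the study's supplement. No label names the control libraries. The remaining number was taken as control by elimination, since it has as many libraries as there were control mice. The letters a to d only name libraries.

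Counts were fitted with edgeR 4.0.16 in R 4.3.3 (TMM scaling, low-count filter, quasi-likelihood test, 1 mean per group over 11 libraries), with Benjamini-Hochberg adjustment over 14050 genes. "Rose" and "fell" mean an adjusted p under 0.05. Alternatives used limma 3.58.1 on log2 FPKM, since the study describes limma after conversion to FPKM, and DESeq2 1.42.0. Python 3.11.15, SciPy 1.17.1 and Biopython 1.88 were used for ratios and sequences. The edgeR step was tested on simulated counts. Mice are separate animals per the study's methods.

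Coordinates, transcripts and overlaps come from GENCODE M21 (GRCm38), since the deposited starts matched it for 1 of 87 genes. Deposited lengths equalled the summed exons of that annotation for all 87. The length sums all exons, so FPKM by it is lower than by transcript length.

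The members and lists were chosen with earlier results of these data known. Genes were named by rule: paralogs and the genes of the pattern that are not ribosomal, the 5 highest and 5 lowest control levels, up to 10 called members per direction, members with well-known roles, and up to 4 called genes per list. Some genes the rule names are not reported here. Rpl39, Rpl7, Rpl22, Rpl28 and the genes named for a library far from its group were chosen after their values were seen. At these depths counts below about 100 have a wide counting error.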

Additional observations from a re-analysis of the deposited data

Results flagged for a closer look

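In groups of 4 libraries, the highest or lowest library was compared with the rest by Dixon's ratio (gap to the nearest library over the range) for each of the 83 genes tested, the share of counts, the library median and the paralog ratios. The sets share the same libraries and are not independent, so the share of them past a cut measures no excess over chance. Of 178 sets of 4 values, 19 (10.7%) were past Dixon's critical value, where chance alone gives about 1 in 20 independent sets.

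Treatment library a was the highest of its group in 13 of them, with 59.9 CPM for Rpl23a, 90.4 CPM for Rpl27, 148 CPM for Rpl28, 109 CPM for Rpl29, 77.1 CPM for Rpl30, 189 CPM for Rpl3l, 195 CPM for Rpl7, 114 CPM for Rps15, 69.3 CPM for Rps15a, 109 CPM for Rps24, 93.3 CPM for Rps26, 23.1 CPM for Rps29 and 785 CPM for Rpsa. The ratio was highest for Rpl28 (0.96), whose other treatment libraries had 73.8 to 76.8 CPM, with 79.9 to 94.8 CPM in case and 72.2 to 87.1 CPM in control libraries.

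Among case libraries, Rps28 and Rps29 were highest in library a, at 22.6 and 19.0 CPM, and Rps13 was lowest in library d, at 16.4 CPM against 25.7 to 27.1 CPM in the others. Rps10 had 2.84 CPM in treatment library c, against 1.45 to 1.59 CPM in the other treatment libraries. By deposited length, the log2 ratio of Rpl3l to Rpl3 was 1.93 in treatment library d, above 1.62 to 1.66 in the others, and that of Rpl22l1 to Rpl22 was -3.36 in treatment library b, below -2.84 to -2.81.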

How the results depend on the processing

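In case against control, 7 members rose with DESeq2, 1 with limma on log2(FPKM + 1), and 0 with limma on log2(FPKM + 0.1) or with only the 2 groups compared, against 4 in the main test, while 11.5%, 7.70%, 6.82% and 2.86% of all genes tested rose in those fits, against 8.21%. Members that fell numbered 0 with both limma fits and with only the 2 groups, against 1 in the main test. Of all genes tested, 6.65%, 5.99% and 3.35% fell in those fits. Without the filter on low counts 2 members fell (2.33%, against 5.51% of all genes). In treatment against case, 0 rose with limma on log2(FPKM + 0.1) or with only the 2 groups (2.18% and 0.592% of all genes rose). With DESeq2 1 fell (1.2% of members, against 10.5% of all genes). Leaving out 1 library gave 0 to 13 that rose and 0 to 1 that fell in case against control, and 0 in treatment against control. The 13 came without case library d (15.7%, against 16.5% of all genes). In treatment against case, 0 to 2 rose and 0 to 4 fell. The 2 that rose came without control library b (2.38%, against 2.46% of all genes). The 4 that fell came without case library d (4.82%, against 16.2%), and 2 fell without treatment library a (2.41%, against 1.93%). The log2 fold change in case against control ranged from -0.02 to 0.13 for Rplp2 and from -0.05 to 0.14 for Rps27a, the only members with a fold change given here that turned direction, without case library a or a control library. The share of counts was 1.14% in case, 1.13% in treatment and 1.03% in control libraries without the 10 most abundant other genes, and 0.872% in control libraries without the mitochondrial genome. DESeq2 size factors and TMM without the members changed no count of members. The median log2 fold changes and paralog ratios moved by less than the spread between libraries in all alternatives. No paired analysis was possible because no source links the column letters a to d with numbered replicates. The cause of lost calls was not tested.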
